A study of Mus musculus with 2 samples.

Results

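The vacuolar proton pump (V-ATPase) genes described here were 10 named genes of the 28000 features in both count matrices: 6 encode V1 subunits (Atp6v1a, Atp6v1b2, Atp6v1c1, Atp6v1d, Atp6v1e1 and Atp6v1h), 3 encode V0 subunits (Atp6v0a1, Atp6v0c and Atp6v0d1) and 1 encodes an accessory protein (Atp6ap1). The genes are listed by name, with earlier results of these data known. They were followed in lineage-labelled aortic smooth muscle cells (SMCs), defined as cells with at least 5 eGFP UMIs (unique molecular identifiers, each counting 1 captured RNA molecule), at least 500 detected genes and at most 10% mitochondrial UMIs. These limits kept 1919 of 2097 KO cells and 1692 of 2095 Control cells. The 16 other V-ATPase genes of the mouse were measured in the same cells.

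The study profiled the thoracic aorta of male C57BL/6 mice at 24 weeks by droplet single-cell RNA sequencing, with 1 library per genotype. The KO library came from Tsc1fl/fl.Myh11-CreERT2.mT/mG mice (Tsc1-/-) and the Control library from Myh11-CreERT2.mT/mG mice (Tsc1+/+). Both groups carried the tamoxifen-inducible Cre driven by the smooth muscle Myh11 gene and the mT/mG reporter, in which recombination replaces a red membrane label with a green one, and both received tamoxifen at 1.5 weeks. Viable GFP+ cells were sorted before capture, and the number of animals behind each library is something the sources used here do not give. With 1 library per genotype no test between genotypes was possible, so every interval below is a 95% interval for counting error only and no spread between animals is known.

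The V-ATPase is a rotary pump that spends ATP to move protons into lysosomes, endosomes and the Golgi. Its peripheral V1 sector holds the catalytic A and regulatory B subunits that bind and split ATP, joined by stalks to the membrane-embedded V0 sector, whose ring of c subunits turns against subunit a to carry the protons. Lysosomal acidity lets hydrolases work, the pump also takes part in placing mTORC1 on the lysosome through Ragulator and the Rag GTPases, and the MiT transcription factors (TFEB, TFE3, MITF) are known to bind E-box-like sites near many lysosomal genes. TSC1, the product of the deleted gene, is part of the complex that restrains mTORC1.

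The kept cells held 30778165 UMIs in KO and 20011501 UMIs in Control, with medians of 15012 and 11665 UMIs per cell. The labelled cells carried the smooth muscle markers Acta2 (11271 CPM in KO, 20922 CPM in Control; CPM, UMIs per 1000000 UMIs of the same cells) and Myh11 (847 CPM in KO, 2505 CPM in Control). The 6 endothelial markers summed to 12.4 CPM in KO and 19.8 CPM in Control, nearly all of it Pecam1 (11.2 CPM in KO, 18.4 CPM in Control); 2 of them in KO and 4 in Control had no UMI, Cdh5 and Tie1 in both. The 7 lymphocyte markers summed to 3.22 CPM in KO and 11.5 CPM in Control, with 2 at 0 in KO and 1 in Control, and the 10 macrophage markers to 15.4 CPM in KO and 18.1 CPM in Control, with 3 at 0 in KO and 2 in Control; Cd3e of T cells and Adgre1 of macrophages had no UMI in either library. The 4 neutrophil markers summed to 24.3 CPM in KO and 8.55 CPM in Control, and the 6 fibroblast markers to 771 CPM in KO and 111 CPM in Control, with none at 0, whereas tdTomato had no UMI. The 16 contractile genes took a median of 2.46% of a cell's UMIs in KO and 5.45% in Control. Tsc1 itself had 8.55 CPM in KO and 9.55 CPM in Control, and whether the counted tags lie in the deleted part was not tested, so this level does not check the labels. The libraries shared 16 cell barcodes, 4 of them among kept cells.

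Transcripts of the proton pump were moderately more abundant in Tsc1-deleted SMCs. The 10 genes together held 907 CPM in KO and 694 CPM in Control, a KO over Control ratio of 1.31 (1.28 to 1.33). Of the 9 genes at 10 CPM or more in at least 1 library, 8 had a ratio over 1, against 49.9% of the 8113 genes tested at that level, and their median log2 ratio was 0.38, against -0.001 over all genes tested. Only Atp6v1b2 of these 9 was at least 1.5-fold higher in KO, where 13.2% of all genes tested were, so the count past that fold was near the background; none of the 9 was at least 1.5-fold lower, as 11.4% of all genes were. At a difference of 25% or more, 5 of the 9 were higher, against 24.1% of all genes. Across single cells thinned to 5000 UMIs each, the 10 genes gave a mean of 4.39 UMIs and a median of 4 (quartiles 3 and 6) in 1902 KO cells, and a mean of 3.50 UMIs and a median of 3 (quartiles 2 and 5) in 1602 Control cells. The per-cell distributions therefore overlapped widely.

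**Figure D1:**
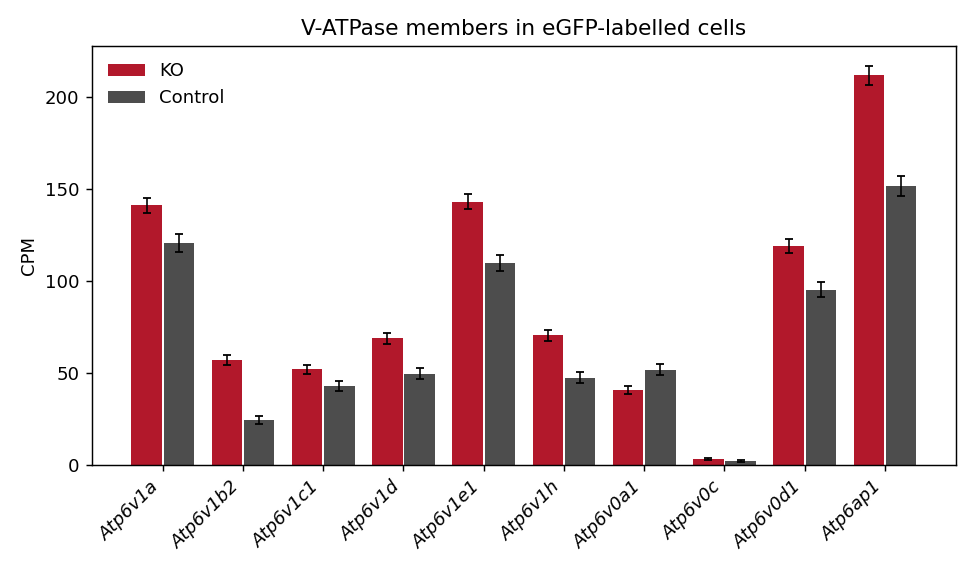
Level of each of the 10 genes in CPM (vertical axis from 0) in KO (red) and Control (grey) labelled cells, with 95% Poisson intervals for counting error; there is 1 library per genotype. All genes but Atp6v0a1 stand higher in KO, and Atp6v0c is near 0 in both.

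All 6 V1 genes had higher levels in KO, by very different factors. Atp6v1b2, the B subunit isoform of most tissues (chr8:69088646-69113711, plus strand, mm10), stood apart with 57.2 CPM in KO and 24.2 CPM in Control, a ratio of 2.36 (2.13 to 2.61). That ratio exceeded those of 95.2% of all genes tested. Its partner in the catalytic hexamer, the A subunit gene Atp6v1a (chr16:44085402-44139705, minus strand), had 141 CPM in KO and 120 CPM in Control, a ratio of 1.17 (1.11 to 1.23). The mRNAs of the 2 subunits that alternate in the hexamer thus differed by unequal factors between the libraries. Among cells with at most 5% mitochondrial UMIs the Atp6v1a ratio was 1.0, so the small difference in Atp6v1a depended on which cells were counted.

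The V1 stalk and regulatory genes lay between those extremes. Atp6v1h, whose subunit regulates the coupling of ATP splitting to the membrane sector (chr1:5070018-5162529, plus strand), had 70.5 CPM in KO and 47.3 CPM in Control, a ratio of 1.49 (1.38 to 1.61), just under the 1.5-fold line. Atp6v1d, encoding the central rotor shaft (chr12:78840725-78861638, minus strand), had 68.8 CPM in KO and 49.6 CPM in Control, a ratio of 1.39 (1.29 to 1.50). Atp6v1e1, encoding a peripheral stalk subunit (chr6:120794305-120822793, minus strand), had 143 CPM in KO and 110 CPM in Control, a ratio of 1.31 (1.24 to 1.37). Of these 3 ratios only those of Atp6v1h and Atp6v1e1 had intervals that did not overlap. Atp6v1c1, encoding the C subunit that is released when V1 leaves the membrane (chr15:38661933-38692446, plus strand), had 51.9 CPM in KO and 42.9 CPM in Control, a ratio of 1.21 (1.11 to 1.32). Summed, the 6 genes held 533 CPM in KO and 394 CPM in Control, a ratio of 1.35 (1.32 to 1.39), and 1.29 (1.2501 to 1.32) with Atp6v1b2 left out.

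The 3 V0 genes did not move together. Atp6v0d1, encoding the d subunit that links the rotor shaft to the c ring (chr8:105524465-105566047, minus strand), had 119 CPM in KO and 95.3 CPM in Control, a ratio of 1.249 (1.18 to 1.32). Atp6v0a1, encoding an isoform of the proton-conducting a subunit (chr11:101009452-101063719, plus strand), was the only member lower in KO, at 40.6 CPM against 51.7 CPM in Control, a ratio of 0.785 (0.722 to 0.853). Its direction held in 13 of the 14 processing alternatives. In 1 of these, without cells holding at least 2 UMIs of Dlx5, Dlx6 and Msx2 together, the ratio was 0.942 (0.857 to 1.04), an interval that includes 1. The direction turned only when UMIs were counted per cell without scaling to the total, where the ratio was 1.06. Under that scaling the median of all genes shifted by 0.44 on the log2 scale, since KO cells held more UMIs. There 8 of the 9 members at 10 CPM or more were at least 1.5-fold higher, as 36.4% of all genes were. Atp6v0c, encoding the c subunit of the proton-carrying ring (chr17:24163866-24169702, minus strand), had 96 UMIs in KO and 37 UMIs in Control (3.12 and 1.85 CPM), a ratio of 1.69 (1.14 to 2.54). Its level is uncertain: GENCODE vM21 annotates 2 processed pseudogenes of Atp6v0c that are not among the deposited genes, and the sources used here do not say how reads shared with such copies were counted. The accessory gene Atp6ap1, whose product (Ac45) helps assemble and route the pump (chrX:74297097-74304721, plus strand), had 212 CPM in KO and 151 CPM in Control, a ratio of 1.40 (1.34 to 1.46).

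**Figure D2:**
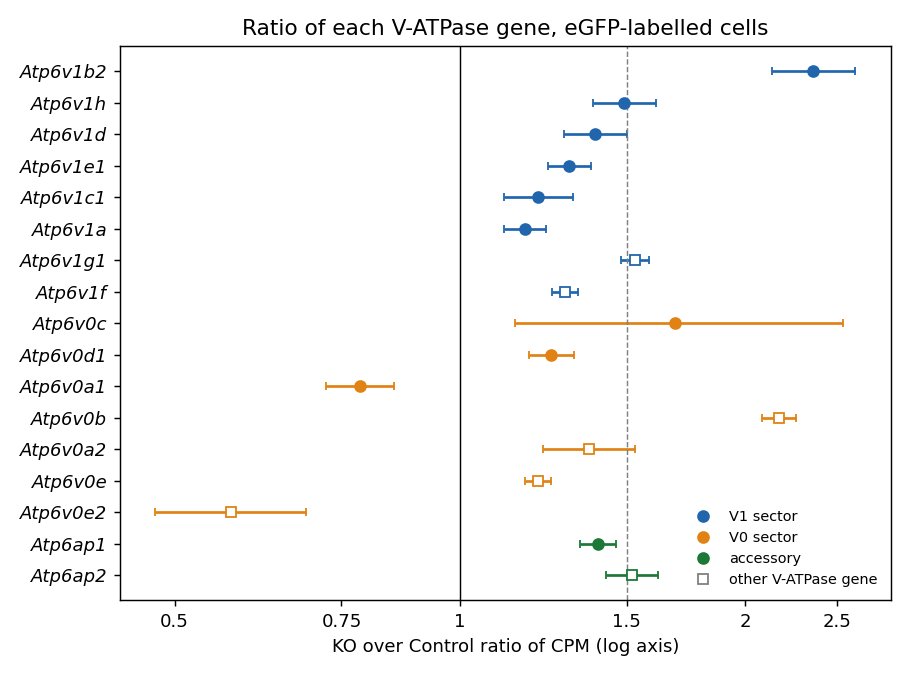
KO over Control ratio of CPM (horizontal log axis) with 95% counting intervals for the V-ATPase genes at 10 CPM or more in at least 1 library and for Atp6v0c; filled circles are the 10 named genes, open squares the others, and colours give the sector. Solid and dashed lines mark ratios of 1 and 1.5. Atp6v1b2 and Atp6v0b lie above 2, and Atp6v0a1 and Atp6v0e2 lie below 1.

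Among these genes the V1 sum was higher in KO by more than the V0 sum, but that contrast depended on which V0 genes were counted. It did not hold gene by gene. Of the 3 V0 genes only Atp6v0a1 (0.785) was lower in KO. The Atp6v0d1 ratio (1.249) lay above those of the V1 genes Atp6v1a (1.17) and Atp6v1c1 (1.21). The V0 sum without Atp6v0a1 was not computed. The 3 V0 genes held 163 CPM in KO and 149 CPM in Control, a ratio of 1.09 (1.04 to 1.14). UMIs of V1 genes outnumbered those of V0 genes by 3.27 in KO and 2.65 in Control, a ratio of ratios of 1.24 (1.17 to 1.30). These quotients compare tags between libraries and are not subunit stoichiometry. With Atp6v1b2 left out the ratio of ratios was 1.18 (1.11 to 1.24). With all 13 V1 and 10 V0 genes of the mouse it was 0.993 (0.966 to 1.02), as all V1 genes had a ratio of 1.38 (1.36 to 1.41) and all V0 genes 1.39 (1.36 to 1.42). The all-V0 value rests on Atp6v0b: without that gene the V0 genes had a ratio of 1.16 (1.13 to 1.19), and the ratio of ratios was 1.19 (1.15 to 1.22).

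The V0 genes outside the named list covered a wider span of ratios. Atp6v0b, encoding the c'' subunit of the ring, had 316 CPM in KO and 145 CPM in Control, a ratio of 2.17 (2.08 to 2.27), so among all V-ATPase genes at 10 CPM or more only Atp6v1b2 and Atp6v0b were over 2-fold higher, as 6.3% of all genes tested were. Atp6v0e, encoding a small membrane subunit, had 366 CPM in KO and 303 CPM in Control, a ratio of 1.21 (1.17 to 1.248). Its paralog Atp6v0e2 was lower in KO, with 7.28 CPM against 12.7 CPM in Control, a ratio of 0.573 (0.477 to 0.689). The alternative a subunit gene Atp6v0a2, whose protein is known from the Golgi, had 31.9 CPM in KO and 23.3 CPM in Control, a ratio of 1.37 (1.22 to 1.53), opposite in direction to Atp6v0a1. Atp6v0d2, the d subunit isoform known from osteoclasts and macrophages, had 23 UMIs in 18 KO cells and none in Control, at least 3.74-fold higher by the counting interval and 4.98-fold against a floor of 3 UMIs per library.

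Of the other V1 and accessory genes, Atp6v1f had a ratio of 1.29 (1.252 to 1.33), with 374 CPM in KO and 289 CPM in Control. Atp6v1g1, a stalk subunit gene, had a ratio of 1.53 (1.48 to 1.58), with 370 CPM in KO and 242 CPM in Control. Atp6v1g2, an isoform known from neurons, had 69 UMIs in KO and 15 UMIs in Control, a ratio of 2.99 (1.69 to 5.63). Atp6ap2, the prorenin receptor and a pump assembly partner, had 105 CPM in KO and 68.9 CPM in Control, a ratio of 1.52 (1.43 to 1.62). Atp6ap1l had 24 UMIs in KO and 67 UMIs in Control, a ratio of 0.233 (0.140 to 0.376). Over all 26 V-ATPase genes, 16 reached 10 CPM, 14 of these had a ratio over 1 (49.9% of all genes tested had), 4 were at least 1.5-fold higher (13.2% of all genes), 1 was at least 1.5-fold lower (11.4% of all genes), and the median log2 ratio was 0.42.

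Promoters are shown for the V-ATPase genes in which an E-box (CACGTG) lay within 250 bases before to 50 bases after a RefSeq gene start (GRCm38.p6). Of the 10 named genes 7 had such a sequence, and of these Atp6v1a and Atp6v0d1 held the E-box, each time as the longer palindrome TCACGTGA. Among the others Atp6v0b held CACGTG at 2 places and Atp6v0e held TCACGTGA. The windows are chr16:44139210-44139509 (minus strand) for Atp6v1a, chr8:105566015-105566314 (minus strand) for Atp6v0d1, chr4:117887280-117887579 (minus strand) for Atp6v0b and chr17:26676146-26676445 (plus strand) for Atp6v0e. They are printed 5′ to 3′ on the strand of the gene, with CACGTG or TCACGTGA in capitals.
Atp6v1a: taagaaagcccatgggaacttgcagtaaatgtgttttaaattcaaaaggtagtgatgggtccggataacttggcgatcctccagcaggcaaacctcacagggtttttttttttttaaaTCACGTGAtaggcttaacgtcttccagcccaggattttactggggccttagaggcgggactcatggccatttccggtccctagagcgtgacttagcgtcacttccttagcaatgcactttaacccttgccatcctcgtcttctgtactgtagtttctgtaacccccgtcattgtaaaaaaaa
Atp6v0d1: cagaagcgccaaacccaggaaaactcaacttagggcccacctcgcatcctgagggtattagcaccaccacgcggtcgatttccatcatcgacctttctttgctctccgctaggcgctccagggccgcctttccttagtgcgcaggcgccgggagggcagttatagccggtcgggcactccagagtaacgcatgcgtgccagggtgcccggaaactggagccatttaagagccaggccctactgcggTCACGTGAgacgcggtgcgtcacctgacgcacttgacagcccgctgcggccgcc
Atp6v0b: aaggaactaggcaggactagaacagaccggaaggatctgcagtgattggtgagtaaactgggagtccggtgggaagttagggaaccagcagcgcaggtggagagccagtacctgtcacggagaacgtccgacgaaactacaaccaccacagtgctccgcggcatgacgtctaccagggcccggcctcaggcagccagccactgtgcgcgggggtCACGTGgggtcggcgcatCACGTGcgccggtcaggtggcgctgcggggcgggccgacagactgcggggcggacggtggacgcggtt
Atp6v0e: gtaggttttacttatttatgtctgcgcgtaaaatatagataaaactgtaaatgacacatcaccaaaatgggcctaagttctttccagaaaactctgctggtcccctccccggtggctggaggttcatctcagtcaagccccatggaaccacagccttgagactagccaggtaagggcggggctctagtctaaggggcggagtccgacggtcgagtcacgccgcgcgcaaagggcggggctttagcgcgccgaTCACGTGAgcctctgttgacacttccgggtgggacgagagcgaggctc

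Both strands were searched, and every TCACGTGA also holds a CACGTG. The palindrome began 132 bases before the start in Atp6v1a, 4 bases before it in Atp6v0d1 and at base 3 after it in Atp6v0e; the E-boxes of Atp6v0b began 36 and 18 bases before its start. Of all 32851 RefSeq promoters of the same length, 7.15% held CACGTG and 0.974% held TCACGTGA. Counted by gene, 8.09% of 27025 genes held CACGTG and 1.12% held TCACGTGA. Of the 26 V-ATPase genes 19 had a promoter, of which 4 held CACGTG and 3 held TCACGTGA. The M-box TCATGTGA, present in 0.986% of promoters, was found in 1 of the 3 Atp6v0c promoters, 17 bases before that start. TCACGTGA extended by a G before and a C after it was in 0.326% of all promoters and in none of the V-ATPase promoters. The 3 genes with TCACGTGA had KO over Control ratios of 1.17 (Atp6v1a), 1.249 (Atp6v0d1) and 1.21 (Atp6v0e), and Atp6v0b, with a pair of E-boxes, had 2.17. At 10 CPM or more, 11 V-ATPase genes had a promoter, and those without an E-box in the window had ratios on both sides of 1. These were Atp6ap2 (1.52), Atp6ap1 (1.40), Atp6v1d (1.39), Atp6v1e1 (1.31), Atp6v1f (1.29), Atp6v0a1 (0.785) and Atp6v0e2 (0.573). The windows of Atp6v0a1 (chr11:101010148-101010447) and Atp6v0e begin inside the GENCODE spans of these genes, so the 5′ ends of those spans were not searched. Whether the ratios go with the motif was not tested. A match is a run of letters in this window and does not show that a factor binds there.

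The other lysosomal genes give these ratios their surroundings. Lysosomal hydrolases and their cofactors reached 10 CPM in 33 cases, of which 17 had a ratio of at least 1.5, against 13.2% of all genes, and none was lower by that factor, with a median log2 ratio of 0.65. Hexa, the alpha chain of beta-hexosaminidase, had 347 CPM in KO and 103 CPM in Control, a ratio of 3.37 (3.22 to 3.54), whereas Ctsb, cathepsin B, had 616 CPM in KO and 603 CPM in Control, a ratio of 1.02 (0.999 to 1.04). Of 14 lysosomal membrane and ion transport genes, 9 were at least 1.5-fold higher, against 13.2% of all genes, and the median was 0.89. Tmem192, a lysosomal membrane protein, had a ratio of 4.00 (3.37 to 4.76), and the two-pore channel gene Tpcn1 had 3.44 (2.94 to 4.03). Clcn3, a chloride-proton exchanger of endosomes, was at 0.742 (0.634 to 0.869). The V-ATPase median of 0.42 thus lay below both lysosomal medians.

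Genes that assemble the pump, and those that sit beside it on the lysosome, were counted in the same way. Assembly and regulatory genes at that level numbered 9, of which 2 had a ratio of at least 1.5, against 13.2% of all genes, and the median log2 ratio was 0.10. Dmxl2, encoding a rabconnectin subunit that promotes joining of V1 to V0, had 16.1 CPM in KO and 5.15 CPM in Control, a ratio of 3.14 (2.53 to 3.92), and its partner Wdr7 had 15.2 CPM in KO and 8.50 CPM in Control, a ratio of 1.79 (1.50 to 2.15). Dmxl1, the paralog of Dmxl2, was at 0.834 (0.743 to 0.937), and Rogdi, also of the rabconnectin complex, at 0.739 (0.645 to 0.846). A list of Ragulator, Rag and folliculin genes that also held Rheb had 12 genes at that level. Of these, 5 were at least 1.5-fold higher (13.2% of all genes) and only Rheb was lower by that factor (11.4%). Rragd, encoding a Rag GTPase, had 25.7 CPM in KO and 0.899 CPM in Control, a ratio of 28.6 (18 to 48.5), and Rheb, the GTPase that activates mTORC1, was at 0.662 (0.641 to 0.684). Among the MiT factors, Tfe3 had a ratio of 1.69 (1.49 to 1.92), Mitf 1.38 (1.202 to 1.58) and Tfeb 0.479 (0.421 to 0.544). The 15 nuclear genes of mitochondrial ATP synthase, the related enzyme that makes ATP, had a median log2 ratio of -0.04 with none past 1.5-fold either way, ranging from 0.754 for Atp5k to 1.24 for Atp5o.

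**Figure D3:**
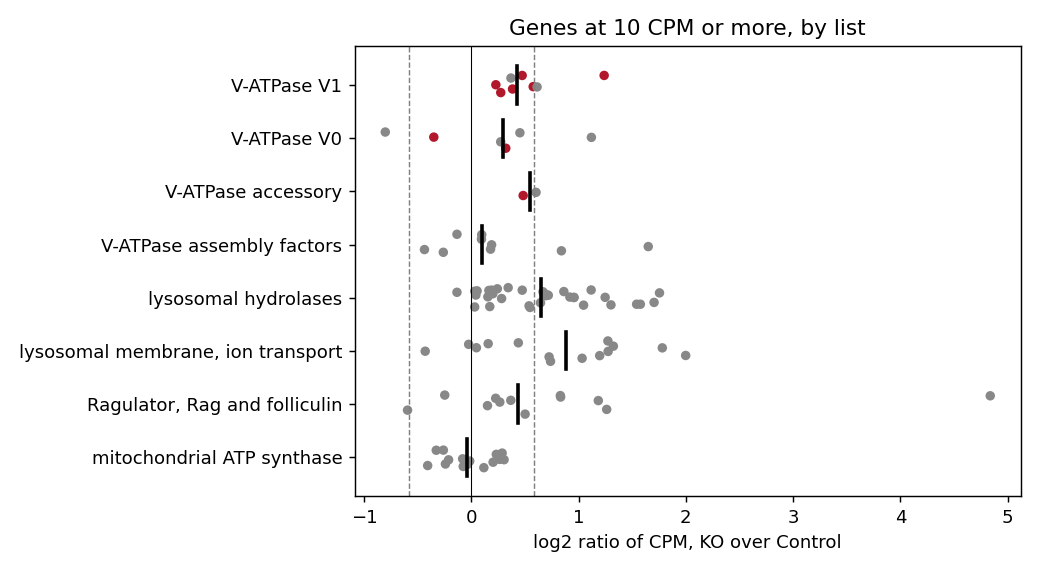
Log2 ratio of CPM, KO over Control (horizontal axis), of each gene at 10 CPM or more, by list; red points are the named V-ATPase genes, grey points the other genes, and black bars the list medians. Dashed lines mark 1.5-fold either way. The mitochondrial ATP synthase median is -0.04 and the lysosomal hydrolase median is 0.65.

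Within each library the cells were divided into 3 equal-sized ranges by contractile share, the percent of a cell's UMIs from 16 smooth muscle contractile genes. In KO the ranges met at shares of 1.53% and 3.43%, and in Control at 4.68% and 6.21%; between 64 and 71 cells lay within 0.1 points of each cut. The V1 sum hardly followed this share. The V1 genes summed to 549, 522 and 525 CPM in the low, middle and high range of KO, and to 389, 398 and 394 CPM in Control. The low over high ratio was 1.05 (1.01 to 1.08) in KO and 0.989 (0.936 to 1.05) in Control. The V0 genes summed to 157, 158 and 173 CPM in KO, a low over high ratio of 0.906 (0.848 to 0.969), and to 168, 137 and 145 CPM in Control, a ratio of 1.15 (1.06 to 1.26). Whether the libraries differ in this was not tested. In KO the ratio was 0.999 among cells thinned to 5000 UMIs, and in Control it was 1.05 with Acta2 and Tagln left out of the share.

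Single subunits followed the contractile share in opposite directions, and the V0 sums combine them. Atp6v0a1 was highest in the least contractile cells of both libraries, with 48.6, 38.3 and 34.3 CPM from the low to the high range of KO and 75.6, 43.6 and 40.8 CPM in Control. Its low over high ratio was 1.42 (1.24 to 1.62) in KO and 1.85 (1.60 to 2.15) in Control, where it was the only member past 1.5-fold, as 15.6% of all genes were; in KO no member was, against 12.1% of all genes. No member was past 1.5-fold in the other direction, as 8.78% of all genes were in KO and 1.87% in Control. Atp6v0d1 ran the other way, with 105, 117 and 136 CPM in KO and 90.5, 91.4 and 103 CPM in Control, ratios of 0.772 (0.713 to 0.835) and 0.883 (0.788 to 0.988). Atp6v1b2 had 62.7, 58.3 and 50.4 CPM in KO, a ratio of 1.24 (1.11 to 1.40), and 24.9, 25.7 and 22.4 CPM in Control, a ratio of 1.11 (0.880 to 1.39). Atp6ap1 was highest in the low range of KO, with 241, 191 and 200 CPM, a ratio of 1.21 (1.14 to 1.28), whereas Control had 144, 152 and 157 CPM, a ratio of 0.918 (0.839 to 1.004). The hydrolases summed to 7001, 5191 and 5019 CPM over the same ranges of KO and to 3974, 3690 and 3722 CPM in Control. In KO the hydrolase low over high ratio was 1.40 (1.38 to 1.41), against 1.05 (1.03 to 1.08) for the 10 pump genes together. The median low over high log2 ratio of all genes tested was 0.02 in KO and 0.18 in Control. The share of cells with Dlx5, Dlx6 and Msx2 RNA (at least 2 UMIs of the 3 genes together) moved with these ranges, at 12.03%, 5.16% and 0.469% of KO cells and 33.0%, 9.57% and 2.84% of Control cells, as did the fibroblast marker sum, at 1715, 325 and 194 CPM in KO and 216, 80.2 and 57.5 CPM in Control; their part in the subunit gradients was not tested. Of the 23 Atp6v0d2 UMIs, 20 fell in the low range of KO and 3 in the middle range. The 8 osteoclast markers summed to 43.5 CPM in KO and 36.5 CPM in Control, with 2 of them at 0 in KO and 3 in Control, Calcr and Dcstamp in both. Acp5 had 13.4 CPM in KO and 0.200 CPM in Control, and Ctsk had 24.04 CPM in KO and 7.70 CPM in Control, whereas Tnfrsf11a, the receptor for the osteoclast-forming ligand RANKL, had 4.48 CPM in KO and 27.7 CPM in Control. Their part in the Atp6v0d2 level was not tested.

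**Figure D4:**
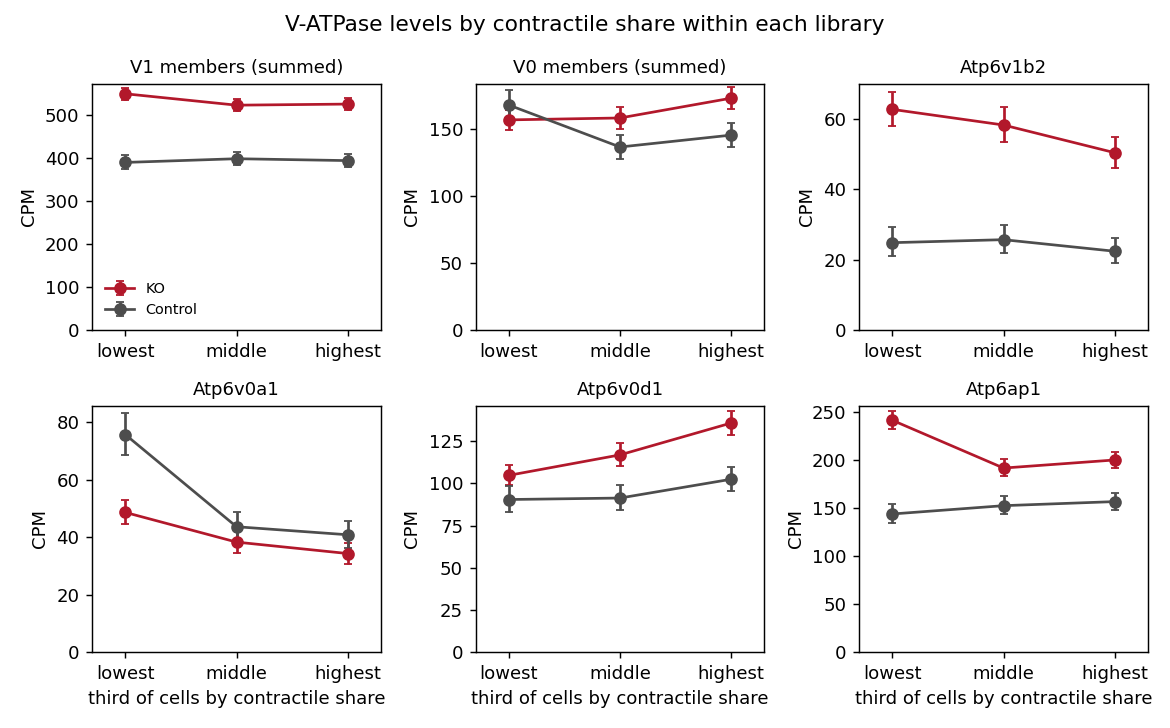
Summed level of the V1 and V0 genes and level of 4 single genes in CPM (vertical axes from 0) in the low, middle and high range of contractile share within KO (red) and within Control (grey), with 95% counting intervals. Atp6v0a1 is highest at the low end in both libraries and Atp6v0d1 at the high end; the V1 sum is nearly level.

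Cells of equal contractile share were compared between the libraries by cutting both at 2.87% and 5.13%. The low, middle and high ranges then held 1106, 566 and 247 KO cells and 98, 637 and 957 Control cells. The V1 sum kept nearly the same KO over Control ratio throughout, at 1.34 (1.21 to 1.50), 1.34 (1.28 to 1.40) and 1.31 (1.249 to 1.38). The V0 sum did not, with ratios of 0.776 (0.665 to 0.910), 1.06 (0.981 to 1.15) and 1.29 (1.18 to 1.40). After thinning to 5000 UMIs the V0 ratio was 1.15 (0.979 to 1.35) in the high range, an interval that includes 1. The share of homeobox-positive cells (at least 2 UMIs of Dlx5, Dlx6 and Msx2) differed within these ranges, at 9.49%, 1.41% and 0% in KO and 41.8%, 25.4% and 5.54% in Control. With those cells left out the V0 ratios were 0.901 (0.720 to 1.14), 1.24 (1.13 to 1.36) and 1.31 (1.205 to 1.43) from the low to the high range. Atp6v1b2 had ratios of 2.60, 2.10 and 1.95 over the ranges, Atp6v0d1 1.24, 1.39 and 1.50, and Atp6v0a1 0.395, 0.575 and 0.767. The nearly level V1 sum combined unlike genes. Atp6v1a had ratios of 1.04 (0.863 to 1.253), 1.08 (0.989 to 1.18) and 1.06 (0.953 to 1.17), and each interval includes 1. Atp6v1h had 1.78, 1.47 and 1.35, and Atp6v1e1 ran the other way with 1.34, 1.38 and 1.45. For both genes the low and high range intervals overlapped. Of the 9 members at 10 CPM or more, those at least 1.5-fold higher in KO numbered 2 in the low range (Atp6v1b2 and Atp6v1h), against 13.3% of all genes, 1 in the middle range (Atp6v1b2), against 9.04%, and 2 in the high range (Atp6v1b2 and Atp6v0d1), against 10.5%. In the low range the median share was 1.27% in KO and 2.498% in Control, so cells there were matched only loosely, and the median log2 ratio of all genes tested there was -0.16.

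The Atp6v0a1 pattern coincided with a class of cells that carry homeobox gene RNA. Cells with at least 2 UMIs of Dlx5, Dlx6 and Msx2 together, a class added after the data had been seen, were 113 KO cells (5.89%) and 256 Control cells (15.1%). In KO 116 cells had 1 such UMI, and in Control 129 had. In KO, Atp6v0a1 had 56.8 CPM in this class and 39.5 CPM in the other cells, a ratio of 1.44 (1.17 to 1.75). In Control, it had 111 CPM in the class and 41.9 CPM in the other cells, a ratio of 2.65 (2.32 to 3.03). Outside the class the KO over Control ratio of Atp6v0a1 was 0.942 (0.857 to 1.04), and inside it was 0.511 (0.408 to 0.636). The cells of the class were not alike in the libraries. Their contractile genes summed to 12150 CPM in KO and 42329 CPM in Control, and their fibroblast markers to 935 and 195 CPM. The homeobox genes themselves summed to 215 CPM in KO and 379 CPM in Control. Without the cells of this class the V0 ratio was 1.17 (1.12 to 1.23) and the V1 ratio 1.36 (1.32 to 1.40). Rgs5, a regulator of G protein signalling, moved with the class, with 132 CPM inside it and 42.3 CPM outside it in KO, and 2673 CPM inside it and 348 CPM outside it in Control. Atp6v0d1 did not, with 118 CPM inside and 119 CPM outside in KO, and 102 CPM inside and 94.1 CPM outside in Control.

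**Figure D5:**
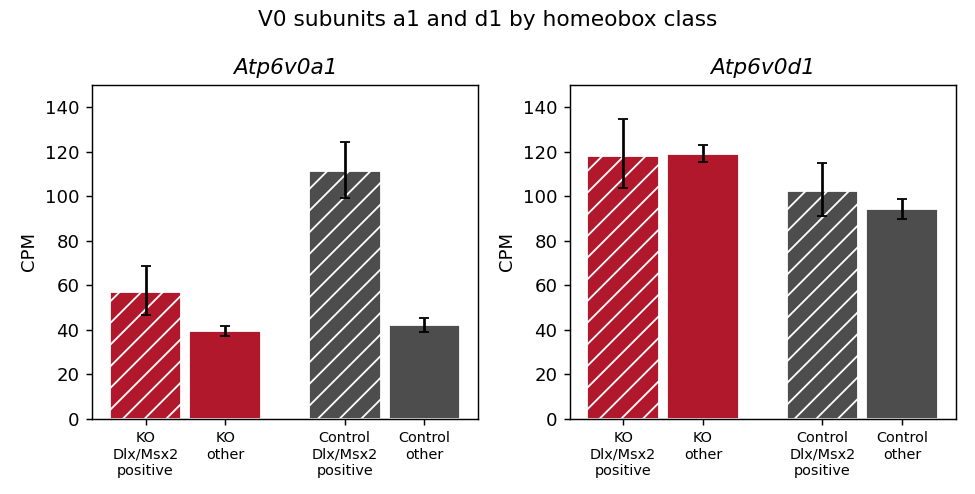
Level of Atp6v0a1 (left) and Atp6v0d1 (right) in CPM (vertical axes from 0) in cells with at least 2 UMIs of Dlx5, Dlx6 and Msx2 (hatched) and in all other labelled cells (plain), for KO (red) and Control (grey), with 95% counting intervals. The tallest Atp6v0a1 bar is the homeobox class of Control, at 111 CPM; Atp6v0d1 bars within a library differ by less.

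The authors' own clusters group cells of the same libraries in another way, and which of those cells were kept here is not known. Some clusters held almost no eGFP, such as Control cluster 5 at a mean of 0.0865. In the authors' deposited table of mean expression per 10000, which has no errors, Atp6v0a1 was at 0.884 in KO cluster 4 and at 0.276 to 0.434 in KO clusters 0 to 3. In Control, the authors' deposited table puts Atp6v0a1 at 1.19 in cluster 4 and at 0.303 to 0.477 in clusters 0 to 2; the Dlx5 mean was 1.92 in KO cluster 4 and 1.54 in Control cluster 4. Atp6v0b in the authors' deposited table ranged from 3.20 to 4.11 over KO clusters 0 to 3. Over Control clusters 0, 1, 2 and 4 the authors' deposited table gives 1.27 to 1.67. KO cluster 4, at 1.61 in the authors' deposited table, lay within the Control range. The authors' deposited table gives 0 for Atp6v1b2 and Atp6v1h in KO cluster 4, and the number of cells behind that cluster was not counted here. In the homeobox class defined above, Atp6v0b had 340 CPM in KO and 156 CPM in Control, a ratio of 2.17 (1.92 to 2.46). The cluster means come from the same libraries and are not independent measurements.

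The Atp6v1b2 level was also set beside macrophage RNA, since macrophages are rich in lysosomes. The 330 Control cells without an eGFP UMI had 69.8 CPM of Atp6v1b2, against 24.2 CPM in labelled Control cells. In the unlabelled cells macrophage markers summed to 17572 CPM and lymphocyte markers to 3489 CPM. The 69.8 CPM is thus the level of a mixture and not of macrophages alone. Within the labelled cells the macrophage markers stood at 15.4 CPM in KO and 18.1 CPM in Control. The single markers did not all run with this sum. Csf1r had 52 UMIs in KO and 4 UMIs in Control, a ratio of 8.45 (3.11 to 32.2), whereas Lyz2 (0.728) and Fcer1g (0.477) were lower in KO. The Atp6v1b2 ratio was 2.303 with every cell holding a macrophage or lymphocyte marker UMI left out. The part of macrophage RNA in the Atp6v1b2 ratio was not tested. The fibroblast markers Lum (254 CPM in KO, 6.10 CPM in Control) and Dcn (352 CPM in KO, 22.9 CPM in Control) differed far more between the libraries than any pump gene at 10 CPM or more, and their part in the pump ratios was not tested.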

How the data were processed

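Droplet single-cell RNA was measured in 1 KO and 1 Control library. The authors deposited UMI counts per gene and cell, and a table of mean expression per cluster whose columns each sum to 10000; the submitters' processing notes name Cell Ranger, Seurat 2.0 and the build mm10, without their roles. Counts were summed over kept cells and divided by their total (CPM). Ratios carry exact conditional binomial 95% intervals and levels Poisson 95% intervals, and the V1 over V0 quotient one from Poisson counts on the log scale, all for counting error only; with 1 library per group no test was run. A ratio of 1.5 at 10 CPM or more in at least 1 library served as the fold line. Scrublet called 6 kept KO cells and 6 kept Control cells; they stayed in, and leaving them out, or cells over 2.5 times the median UMI total, was an alternative. Gene spans come from GENCODE vM21, where 27645 of 27998 Ensembl identifiers were found, and promoters from RefSeq (GRCm38.p6); Atp6v1b2, Atp6v1c1 and Atp6v1h had no promoter entry. No member's exons overlap another gene's on the same strand. The scripts were tested on simulated counts and ran in Python 3.11.15 with numpy 2.4.6, scipy 1.17.1, pandas 2.3.3, scanpy 1.11.5 and matplotlib 3.10.9.

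The members and lists were chosen with earlier results of these data known. Named were all 10 members, other V-ATPase genes at 10 CPM or past 1.5-fold with at least 20 UMIs, and genes among the 3 highest and 3 lowest ratios of each other list; Rgs5 was named after its values were seen.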

Additional observations from a re-analysis of the deposited data

Results flagged for a closer look

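The summed V0 level followed the contractile share in opposite directions in the libraries: its low over high ratio was 0.906 in KO and 1.15 in Control, and the difference between them was not tested. The single genes ran the same way in both, Atp6v0a1 with ratios of 1.42 in KO and 1.85 in Control and Atp6v0d1 with 0.772 in KO and 0.883 in Control. The contrast of the sums was smaller in some alternatives, with 0.999 in KO after thinning and 1.05 in Control with Acta2 and Tagln out of the share. In Control cells without an eGFP UMI, which the comparisons do not use, Atp6v1b2 was 2.88-fold higher (2.28 to 3.60) than in labelled Control cells; these 330 cells had a median of 3750 UMIs.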

How the results depend on the processing

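No paired analysis was possible because there was 1 library per genotype, and for the same reason no library could be left out. The summed and counted results carry no test, so they hold no call that could reverse. Under alternatives, 89 of their values stayed within counting error or 1.5 times the count, and 24 moved. With UMIs per cell in place of CPM, 9 of the 10 members were at least 1.5-fold higher against 2 (Atp6v1b2 and Atp6v0c) with CPM, while 36.4% of all genes at 10 CPM or more were, the median log2 ratio was 0.87, the V1 ratio 1.83 and the V0 ratio 1.48. Cells thinned to 5000 UMIs gave 1 member past the fold, a V1 ratio of 1.31 and a V0 ratio of 1.02. The share of all genes past the fold was not counted in thinned cells, so that count has no background beside it. A fold line of 25% above 1 gave 6 members, beside 24.1% of all genes, and a fold of 2 gave 1, beside 6.3%. Without homeobox cells (an alternative chosen after seeing the data, as was UMIs per cell) the V0 ratio was 1.17 and V1 over V0 was 1.16; with all V1 and V0 genes these were 1.39 and 0.993, and without Atp6v0b (also chosen after seeing the data) 1.16 and 1.19. The low over high ratio of V1 in KO was 1.0 with contractile genes out of the total and 1.11 after thinning. That of V0 in KO was 0.999 after thinning; in Control it was 1.43 with ranges cut over both libraries and 1.05 with Acta2 and Tagln out of the share. At equal contractile share after thinning, the V0 ratio was 0.663, 0.936 and 1.15 from the low to the high range, the middle one now under 1, and V1 was 1.22 in the middle range; without homeobox cells the middle V0 ratio was 1.24. The cause of these shifts was not tested. Atp6v0c rests on 96 UMIs in KO and 37 UMIs in Control.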

Other observations

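The 330 Control cells without an eGFP UMI, whose macrophage markers summed to 17572 CPM and lymphocyte markers to 3489 CPM, differed from labelled Control cells in the level of some pump genes. Atp6v0a1 had 8.34 CPM in the unlabelled cells and 51.7 CPM in the labelled ones, a ratio of 0.161 (0.0802 to 0.290). Tcirg1, the a subunit isoform known from osteoclasts, had 19.7 CPM in unlabelled and 9.24 CPM in labelled cells, a ratio of 2.13 (1.36 to 3.23). Atp6v0b had 250 CPM in unlabelled and 145 CPM in labelled cells, a ratio of 1.72 (1.53 to 1.93). Atp6v1a and Atp6ap1 were lower in the unlabelled cells, with ratios of 0.214 (0.148 to 0.300) and 0.441 (0.352 to 0.545). Atp6v1d, Atp6v1e1, Atp6v1f, Atp6v1g1 and Atp6v0d1 had ratios between 0.892 and 1.10, each with an interval that includes 1. Both kinds of cell came from the same library, and these genes were chosen after their values were seen.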
